A study of Mus musculus with 8 samples.

Results

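The OAS family and viperin-linked antiviral effectors were taken as 6 genes by name, Oasl1, Oasl2, Oas3, Rsad2, Cmpk2 and Isg20, out of 10970 genes in the table, and all 6 passed the filters on low counts that left 8478 genes for testing. Their RNA was counted by SCRB-seq, a plate-based single-cell method that tags each RNA molecule with a unique molecular identifier (UMI), in neutrophils enriched from peripheral blood (PB) or bone marrow (BM) of C57BL/6J mice injected intraperitoneally with PBS or with 0.5 mg/kg lipopolysaccharide (LPS). The methods give male mice of 7 to 12 weeks for all experiments, with no genetic change named for these samples. The 4 groups, PBS-primed PB, LPS-primed PB, PBS-primed BM and LPS-primed BM neutrophils, had 2 labelled samples each, all of batch 7, with 711 cells in all. The sample titles give hour 0 for PBS and hour 4 for LPS, so that treatment and hour cannot be told apart from these labels. For its transfer experiments, the paper states that PBS- and LPS-primed neutrophils were both prepared 4 h after injection. A further 710 cells of batch 6 lie on 9 plates whose names give a group but no labelled sample, and they are described plate by plate and not tested as replicates.

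These genes belong to the interferon-induced defence against viruses. LPS binds Tlr4 on innate immune cells, which can lead to type I interferon, and interferon signals through a complex that holds Irf9 to elements in the promoters of antiviral genes. OAS enzymes sense double-stranded RNA and make oligoadenylates that activate the nuclease RNase L, while the related OAS-like proteins act partly by other means. Rsad2 encodes viperin, a radical SAM enzyme that turns CTP into a nucleotide that ends RNA chains, and its neighbour Cmpk2 encodes a mitochondrial kinase that phosphorylates CMP and UMP. Isg20 encodes an exonuclease that degrades single-stranded RNA.

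In the mm9 build of the files, Oasl2 (chr5:115346943-115362243) and Oasl1 (chr5:115373249-115387924) lie on the plus strand 11005 bases apart, and Oas3 (chr5:121203107-121227670) lies on the minus strand of the same chromosome. Rsad2 (chr12:27127618-27141317, minus strand) and Cmpk2 (chr12:27154069-27164700, plus strand) stand head to head, 12751 bases apart, and Isg20 (chr7:86058310-86065248) is on the plus strand. All 6 are protein-coding genes of the GENCODE annotation of that build. The start of Oasl1 overlaps Gm13822, a processed transcript on the opposite strand, only at chr5:115373249-115373286. Since the strand setting of the counting is not stated in the sources used here, reads of this short stretch might not be told apart.

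The RefSeq promoters, from 250 bases before to 50 after each annotated start in GRCm38.p6, each matched the mm9 genome exactly at 1 place, which gives the mm9 positions below. The ISRE core, GAAANNGAAA on either strand, is the element read by that interferon complex, and it was found in the windows of Oas3 and Rsad2. The same letters were found in 3.44% of 32851 RefSeq promoter windows. The shorter IRF element AANNGAAA, which overlaps the ISRE core, was found in Oasl1, Oas3, Rsad2 and Isg20, and in 23.9% of all windows. The 4 windows that hold a match are printed 5′ to 3′ on the gene's strand, with the matches in capitals.
Oasl1, chr5:115372999-115373298, plus strand: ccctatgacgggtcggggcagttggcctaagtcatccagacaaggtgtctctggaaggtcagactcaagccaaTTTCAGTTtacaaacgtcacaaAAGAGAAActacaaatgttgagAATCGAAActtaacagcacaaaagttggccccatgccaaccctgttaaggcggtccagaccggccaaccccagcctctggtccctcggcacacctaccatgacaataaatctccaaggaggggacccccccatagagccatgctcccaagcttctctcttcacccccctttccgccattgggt
Oas3, chr5:121227619-121227918, minus strand: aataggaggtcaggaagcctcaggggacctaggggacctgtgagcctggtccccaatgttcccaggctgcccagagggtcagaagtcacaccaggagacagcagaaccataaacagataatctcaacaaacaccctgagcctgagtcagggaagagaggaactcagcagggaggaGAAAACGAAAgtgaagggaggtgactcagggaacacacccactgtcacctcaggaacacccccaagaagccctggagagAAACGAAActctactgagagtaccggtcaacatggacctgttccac
Rsad2, chr12:27141268-27141567, minus strand: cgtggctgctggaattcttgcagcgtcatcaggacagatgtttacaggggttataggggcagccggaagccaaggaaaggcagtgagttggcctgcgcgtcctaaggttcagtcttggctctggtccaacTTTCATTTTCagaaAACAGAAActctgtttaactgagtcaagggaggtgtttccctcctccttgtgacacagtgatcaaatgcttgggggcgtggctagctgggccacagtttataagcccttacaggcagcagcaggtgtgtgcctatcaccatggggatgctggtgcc
Isg20, chr7:86058060-86058359, plus strand, the first of 3 RefSeq starts: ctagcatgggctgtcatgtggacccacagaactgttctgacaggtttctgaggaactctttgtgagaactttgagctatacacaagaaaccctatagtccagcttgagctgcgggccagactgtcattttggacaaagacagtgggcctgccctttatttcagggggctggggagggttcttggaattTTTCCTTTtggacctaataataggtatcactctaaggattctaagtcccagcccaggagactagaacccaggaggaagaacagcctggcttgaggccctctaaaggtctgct

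In the Rsad2 window the ISRE core begins 120 bases before the start and in the Oas3 window 75 bases before it. The window of Oasl1 holds 3 IRF elements, the first 177 bases before the start. A GAS motif, TTCNNNGAA, was found in the printed Isg20 window, 73 bases before the start, and is left in small letters there (8.30% of all windows). A kappaB element, GGGANNTTCC, read by NF-kappaB, was found in another Isg20 window (1.47% of all windows). The windows of Oasl2 and Cmpk2 held none of these motifs. These matches describe letters in a window, and no binding was measured.

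The labelled samples held 3240559 to 8361677 UMIs in 83 to 92 cells each, with 5012 to 496311 UMIs per cell over the whole table. Neutrophil markers took 14.7% to 15.6% of all UMIs in PBS-primed PB, 29.0% to 32.04% in LPS-primed PB and 35.3% to 41.1% in BM samples, and all 13 of them were detected in both PBS-primed PB samples. Among these, the granule genes Camp (34.3 and 35.2 CPM, counts per 1000000 UMIs of the sample), Ltf (4.96 and 8.95 CPM) and Ngp (61.3 and 142 CPM) in PBS-primed PB stood at 3480 and 3621, 1409 and 2038, and 8306 and 9305 CPM in LPS-primed PB, and higher still in every labelled BM sample. Of other granule genes on the list, Mmp8 kept to this order, but Mmp9 and Lcn2 did not. Mmp9 was lower in LPS-primed PB (1044 and 1176 CPM) than in PBS-primed PB (2434 and 2015). Lcn2 went from 1209 and 1223 to 18290 and 20850 CPM in PB, above every labelled BM sample (10320 to 14530). The receptor gene Csf3r was at 6748 and 5743 CPM in PBS-primed and 2829 and 2505 in LPS-primed PB. Of other cell types, T cell markers summed to 230 to 276 CPM in PBS-primed PB and 1.53 to 1.56 in LPS-primed PB, B cell markers to 80.5 to 108 and 0.680 to 0.781, NK cell markers to 82.4 to 238 and 0.312 to 0.340, platelet markers to 295 to 462 and 73.6 to 128, and 6 liver genes to 1525 to 2338 and 873 to 903. Monocyte or macrophage markers summed to 232 to 594 CPM in PBS-primed and 852 to 997 in LPS-primed PB, with Ccr2, F13a1, Ms4a6c and Cx3cr1 at 0 in both LPS-primed samples and Ly6c2 giving 640 to 874 CPM. Plasmacytoid dendritic cell markers summed to 26.6 to 48.4 and 127 to 214 CPM, of which Bst2, itself interferon-induced, gave 24.8 to 36.7 and 111 to 160, while Siglech and Ccr9 were at 0 in all 4 PB samples. Erythroid and eosinophil or basophil markers reached at most 28.3 CPM in any labelled sample. The ERCC spike-in ratio given by the authors, whose denominator is not stated, had sample medians of 0.633 to 0.664 in PBS-primed PB, 0.498 to 0.520 in LPS-primed PB and 0.416 to 0.483 in BM. The part of these differences in the results was not tested. The 95 barcode numbers in use all recur in at least 2 of the 17 plates, and replicate samples differed by more than counting noise in every group.

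The first comparison asked what LPS priming did to these genes in circulating neutrophils. All 6 rose in LPS-primed against PBS-primed PB neutrophils, by 3.94-fold (Oasl2) to 27.5-fold (Rsad2) in the edgeR quasi-likelihood test on UMIs summed per sample. Of all tested genes, 3.47% passed in this direction at an adjusted p of 0.05. The median log2 difference of the 6 genes was 3.81, against −0.11 over all tested genes. The 2 LPS-primed samples also lay above the 2 PBS-primed samples in CPM for 6 of 6 genes, as they did for 11.4% of all tested genes. The plot of member levels gives every sample.

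**Figure D1:**
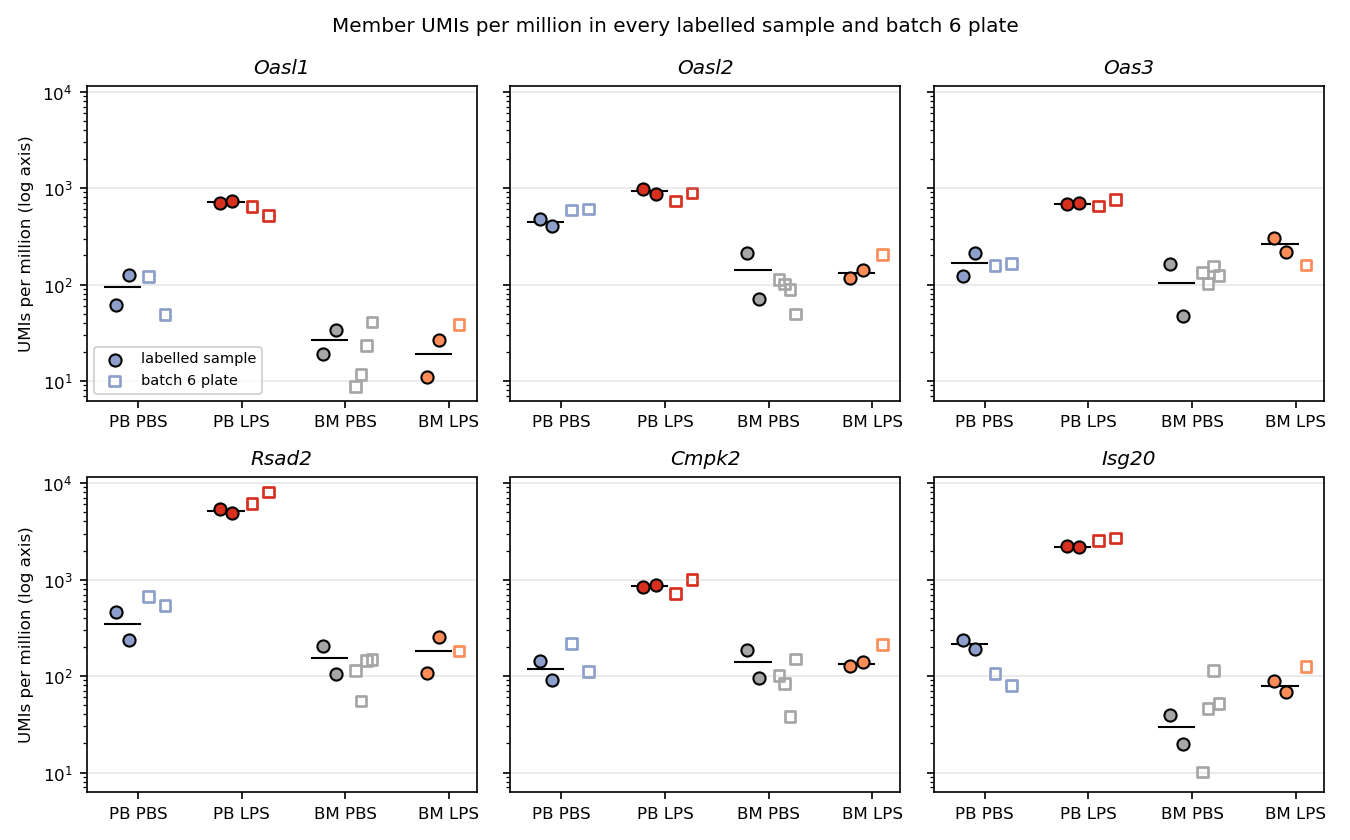
Level of each gene in CPM (vertical log axis) in the 4 groups, with filled circles for the 2 labelled samples of a group, a black line for their mean and open squares for plates of batch 6. In every panel the LPS-primed PB points lie above all other points, and the BM points of PBS- and LPS-primed mice overlap or lie close together.

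Among the OAS family, Oasl1, an OAS-like protein without synthetase activity that restrains Irf7, had 60.9 and 126 CPM after PBS priming in PB, and 697 and 735 CPM after LPS priming. The groups were far apart, and the difference was 3.86 ± 0.55 on the log2 scale (SE, adjusted p = 0.00205, 2 samples a group). Oasl2, an OAS-like protein that kept synthetase activity, was at 478 and 405 CPM in PBS-primed and 982 and 869 in LPS-primed PB samples. Its difference, 1.98 ± 0.43 (adjusted p = 0.0283), was the smallest of the 6. Oas3, a synthetase that prefers long double-stranded RNA, was at 122 and 214 CPM after PBS and at 681 and 701 after LPS, a difference of 2.96 ± 0.52 (adjusted p = 0.00919).

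Rsad2 (viperin) was at 459 and 238 CPM in PBS-primed and at 5338 and 4889 CPM in LPS-primed PB samples. Both LPS-primed values were over 10 times both PBS-primed ones, and the log2 difference was 4.78 ± 0.50 (adjusted p = 0.000262). Cmpk2, its neighbour in the genome, was at 145 and 91.0 CPM after PBS and at 835 and 874 CPM after LPS. The groups did not overlap and differed by 3.77 ± 0.40 (adjusted p = 0.000283). Isg20, the exonuclease, was at 236 and 190 CPM after PBS and at 2211 and 2160 CPM after LPS. Its difference of 4.27 ± 0.35 had the lowest adjusted p of the 6, 5.06e-05.

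The fitted folds exceed the ratios of the CPM values because TMM, the scaling of the test, gave the LPS-primed PB samples factors of 0.694 and 0.748 and the PBS-primed ones 1.35 and 1.38. With library size alone the median of all genes moved from −0.11 to −1.02, and calls over all genes from 294 higher and 40 lower to 140 higher and 268 lower. On that scale Rsad2 differed by 3.87, Isg20 by 3.35, Oasl1 by 2.93 and Cmpk2 by 2.85, all past the threshold, whereas Oas3 (2.04, adjusted p = 0.0508) and Oasl2 (1.06, adjusted p = 0.185) missed it. Oas3 and Oasl2 also missed it when PBS-primed PB replicate 1 (adjusted p = 0.135 and 0.167) or replicate 2 (0.0737 and 0.237) was left out.

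The batch 6 plates, which the test did not use, lay in the same order of treatments, with Isg20 lower after PBS and Rsad2 higher in both groups than in the labelled samples. On its 2 LPS-primed PB plates Rsad2 was at 6126 and 8118 CPM, and on its 2 PBS-primed PB plates at 671 and 535. Isg20 was at 2542 and 2691 against 106 and 79.5 CPM, Cmpk2 at 715 and 1003 against 216 and 112, and Oasl1 at 640 and 518 against 121 and 49.2. Oas3 was at 650 and 756 against 157 and 164 CPM, and Oasl2 at 734 and 886 against 595 and 606. No gene had overlapping plates, and Oasl2 had the narrowest gap. Fitted with batch as a term and 1 sum per group from batch 6, 6 of 6 genes passed in PB, with adjusted p up to 0.00218. Of the 8622 genes tested in that fit, 508 passed in this direction.

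**Figure D2:**
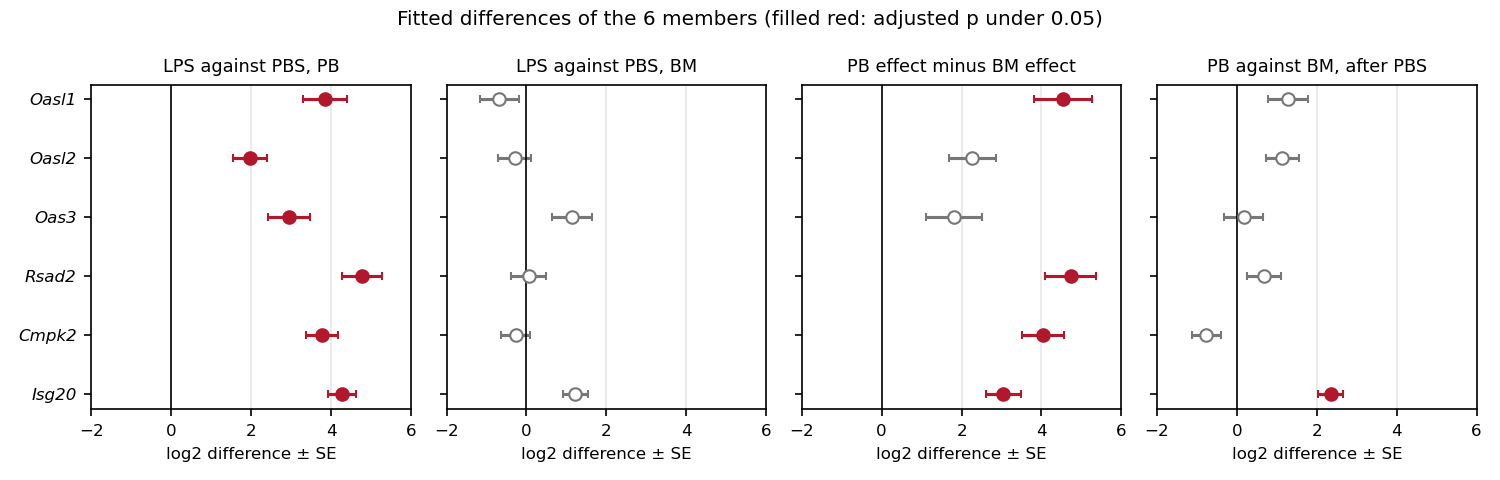
Log2 differences with standard errors (horizontal axis) of the 6 genes in 4 comparisons from 1 edgeR fit of 8 samples, with filled red points past an adjusted p of 0.05. All 6 points pass for LPS against PBS in PB, none in BM, 4 for the difference between them, and Isg20 alone for PB against BM after PBS.

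The same priming was then compared in BM neutrophils. None of the 6 genes passed the edgeR test there, where 0.0708% of all tested genes did in either direction, while 2 of 6 were under an unadjusted p of 0.05, as were 8.07% of all tested genes. Isg20 was at 39.0 and 19.97 CPM in PBS-primed and at 88.6 and 67.7 CPM in LPS-primed BM samples, a log2 difference of 1.23 ± 0.31 (adjusted p = 0.306), and it passed with DESeq2 (adjusted p = 0.0168). Oas3 was at 162 and 46.8 CPM against 302 and 220, a difference of 1.14 ± 0.49 (adjusted p = 0.61). Without PBS-primed BM replicate 1 the Oas3 difference was 2.26 and without replicate 2 it was 0.52, and with thinned cells that of Isg20 was 0.40. These were the 2 genes whose LPS-primed BM samples both lay above the PBS-primed ones, as was the case for 25.0% of all tested genes. In batch 6 the single LPS-primed BM plate had 126 CPM of Isg20 and 159 of Oas3, against 10.1 to 113 and 102 to 155 on the 4 PBS-primed plates.

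The other 4 genes overlapped between the BM groups. Rsad2 was at 204 and 104 CPM after PBS and at 107 and 253 after LPS (0.05 ± 0.43), and Cmpk2 at 185 and 96.03 against 126 and 138 (−0.27 ± 0.36). Oasl2 was at 212 and 71.0 against 117 and 143 CPM (−0.29 ± 0.41), and Oasl1 at 19.2 and 34.0 against 11.1 and 26.9 CPM (−0.67 ± 0.50). The signs of these 4 changed under some alternative settings, and none of them is a direction. The single LPS-primed BM plate of batch 6 held 182 CPM of Rsad2, 213 of Cmpk2, 204 of Oasl2 and 38.3 of Oasl1, of which Oasl1 alone lay within the range of the 4 PBS-primed plates.

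The LPS effect was larger in PB than in BM for 4 of 6 genes by the test of the difference itself, which 1.45% of all tested genes passed in this direction. The log2 difference of effects was 4.73 ± 0.64 for Rsad2 (adjusted p = 0.00277), 4.53 ± 0.73 for Oasl1 (0.00869), 4.04 ± 0.52 for Cmpk2 (0.0021) and 3.04 ± 0.44 for Isg20 (0.00474). Oasl2 (2.27 ± 0.59, adjusted p = 0.124) and Oas3 (1.81 ± 0.70, adjusted p = 0.304) did not pass, but Oasl2 did with DESeq2 (adjusted p = 0.00597) and Oas3 with both batches in edgeR (adjusted p = 0.0309). The median over the 6 genes was 3.54, against −0.17 over all genes. With library size alone, and likewise with limma-voom, only Rsad2 and Cmpk2 passed, and without PBS-primed PB replicate 1 Oasl1 no longer did (adjusted p = 0.0606). Leaving out PBS-primed BM replicate 2 brought all 6 past the threshold.

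In resting animals, PB and BM neutrophils differed in 1 gene of the 6. Isg20 was higher in PBS-primed PB than in PBS-primed BM by 2.34 ± 0.32 on the log2 scale (adjusted p = 0.00292), and 1.18% of all tested genes passed in this direction. The batch 6 plates do not share this separation, with 79.5 and 106 CPM in PB and 10.1, 46.1, 52.3 and 113 CPM in BM. Oasl1 (1.28 ± 0.50, adjusted p = 0.217), Oasl2 (1.14 ± 0.42, 0.215), Rsad2 (0.67 ± 0.43, 0.439) and Oas3 (0.18 ± 0.49, 0.909) did not pass, nor did Cmpk2 (−0.76 ± 0.36, 0.287). Both PB samples lay above both BM samples in CPM for Oasl1, Oasl2, Rsad2 and Isg20, and 34.6% of all tested genes did the same.

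In the order of levels, LPS-primed PB neutrophils came first for each of the 6 genes. For Isg20 the order went on with PBS-primed PB, LPS-primed BM and PBS-primed BM, with no overlap between neighbours in the labelled samples. On the batch 6 plates Isg20 was higher in LPS-primed BM, at 126 CPM, than on both PBS-primed PB plates. For Oasl1 and Oasl2 PBS-primed PB came second, and the 2 BM groups overlapped. For Oas3 LPS-primed BM came second and overlapped no other group in the labelled samples, though its batch 6 plate (159 CPM) lay between the PBS-primed PB plates (157 and 164), while PBS-primed PB and PBS-primed BM overlapped each other. For Rsad2 PBS-primed PB and LPS-primed BM overlapped, as did the 2 BM groups, and for Cmpk2 the 3 groups below LPS-primed PB all overlapped.

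Single cells were compared after each cell was thinned to 5000 UMIs so that depth was equal, with no cell left out. Rsad2 was detected in 94.5% of 91 and 97.7% of 86 LPS-primed PB cells (exact 95% intervals 87.6% to 98.2% and 91.9% to 99.7%), against 27.8% of 90 and 34.9% of 86 PBS-primed PB cells (18.9% to 38.2% and 24.9% to 45.9%). Isg20 was detected in 89.0% and 81.4% of LPS-primed and 21.1% and 23.3% of PBS-primed PB cells. Oas3 was found in 82.4% and 70.9% against 24.4% and 16.3%, Oasl2 in 70.3% and 72.1% against 42.2% and 37.2%, Cmpk2 in 60.4% and 66.3% against 13.3% and 9.30%, and Oasl1 in 59.3% and 60.5% against 10% and 12.8%. In BM samples the shares ran from 2.41% (Oasl1) to 35.9% (Oas3). Without thinning, the 6 genes were found in 90.1% to 100% of LPS-primed PB cells, 29.1% to 92.2% of PBS-primed PB cells and 12.05% to 80.2% of BM cells. The intervals cover counting error only.

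Beside the share of cells, the number of molecules in a positive cell differed between genes. In LPS-primed PB cells the median over positive thinned cells was 16.5 and 14 UMIs of Rsad2 in the 2 samples, against 2 and 2 in PBS-primed PB cells, and 8 and 8 of Isg20 against 1 and 1.5. For Oas3 the same medians were 2 and 3 against 1.5 and 3, and for Oasl2 6 and 4 against 3.5 and 3.

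In PBS-primed PB and in BM, a pair of cells held a large share of the RNA of some genes, counted without thinning in cells of unequal depth. In the 2 PBS-primed PB samples the top 2 cells held 64.1% and 82.7% of all Cmpk2 UMIs, 57.3% and 63.6% of Oasl1, 52.2% and 42.9% of Rsad2, 45.6% and 43.0% of Isg20, 38.1% and 36.8% of Oas3 and 26.3% and 21.0% of Oasl2. In the LPS-primed PB samples the top 2 cells held 12.8% to 24.5% of the UMIs of any of the 6 genes. The labelled BM samples ran from 13.9% (Oas3) to 94.0% (Oasl1). For Oasl1 the shares were 94.0% and 72.9% in PBS-primed and 81.4% and 47.5% in LPS-primed BM. For Isg20 they were 56.6% and 71.9% in PBS-primed and 39.0% and 35.4% in LPS-primed BM. The part of these few cells in the BM comparisons was not tested. Of PBS-primed PB cells, 5 of 90 and 0 of 86 reached 39 summed UMIs of the 6 genes, the median of LPS-primed PB cells after thinning, and in BM 5 of 358 cells did.

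Counted together, at least 4 of the 6 genes were detected in most LPS-primed PB cells, and all 6 in 26.4% and 22.1% of them. A thinned cell held UMIs of 4.56 and 4.49 of the 6 genes on average in the LPS-primed PB samples, of 1.39 and 1.34 in PBS-primed PB and of 0.848 to 1.20 in BM. At least 4 of 6 were present in 76.9% and 81.4% of LPS-primed PB cells and in 8.89% and 2.33% of PBS-primed PB cells, and no LPS-primed PB cell lacked all 6. On the LPS-primed PB plates of batch 6 the means were 5.17 and 4.81, with at least 4 genes in 92.6% and 90.1% of cells, and on its PBS-primed PB plates 1.73 and 1.38. In LPS-primed BM, 12 of 183 labelled cells held at least 4 genes, against 4 of 175 in PBS-primed BM and 10 of 176 in PBS-primed PB.

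**Figure D3:**
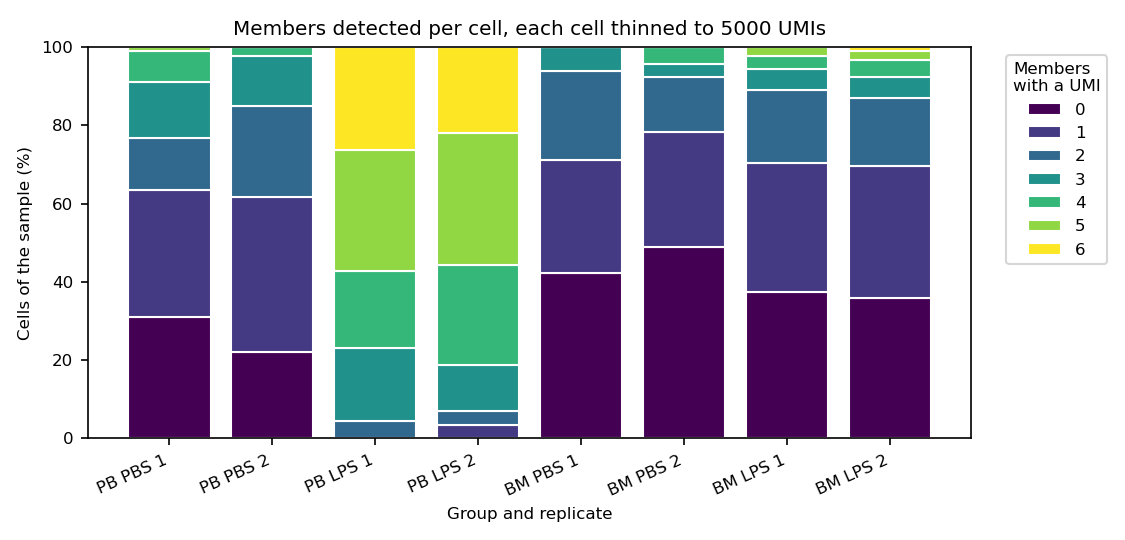
Share of cells (vertical axis, percent) with UMIs of 0 to 6 of the genes in each labelled sample, each cell thinned to 5000 UMIs. The LPS-primed PB bars have no cells at 0 and 22.1% to 26.4% at 6, while in the other bars 22.1% to 48.9% of cells are at 0.

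Within LPS-primed PB cells the correlations between the genes differed from pair to pair. Spearman correlations were taken over cells of 1 sample or plate, on log2(TPM/10 + 1), where cells share a library and levels are relative to each cell's UMIs, so they are given as a description. Over the 15 pairs the median was 0.237 and 0.265 in the labelled samples (91 and 86 cells) and 0.201 and 0.214 on the batch 6 plates (95 and 91 cells). Rsad2 with Isg20 had the most even high values, from 0.422 to 0.607 over the 4 samples and plates. These were also the genes with the most UMIs per cell. In LPS-primed PB replicate 1 they had 376 and 156, against 47.9 to 69.1 for the others. The part of these unequal counts in the correlations was not tested. The neighbours Rsad2 and Cmpk2 ranged from 0.282 to 0.512, whereas the neighbours Oasl1 and Oasl2 ranged from 0.0932 to 0.209. Oasl2 had values up to 0.301 with any other gene, Oas3 up to 0.324, and Cmpk2 with Isg20 changed sign, from −0.176 to 0.310. In PBS-primed PB samples and plates the medians over pairs were −0.0269 to 0.163, at a depth where most cells have few UMIs of these genes.

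**Figure D4:**
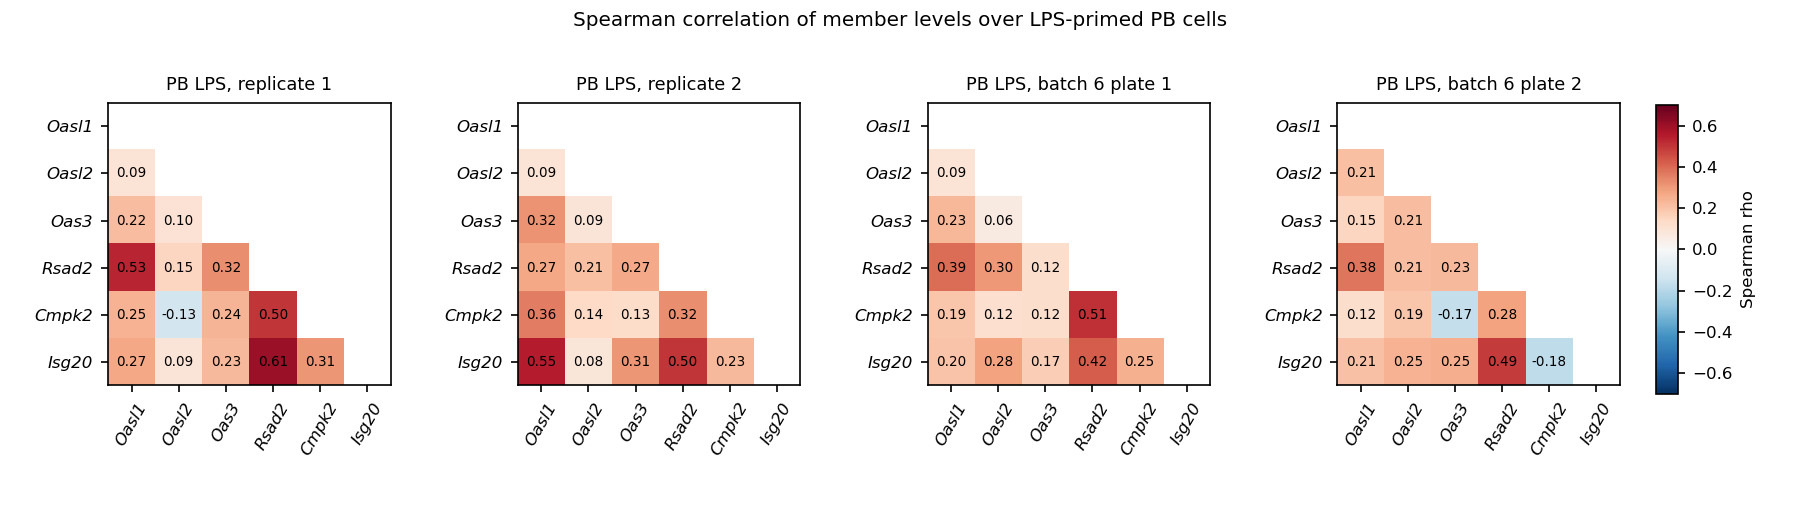
Spearman correlation of each pair of genes over the LPS-primed PB cells of the 2 labelled samples and 2 batch 6 plates (colour and printed value, from −0.7 to 0.7). Rsad2 with Isg20 is among the highest values in each panel, and the values of Oasl2 lie between −0.131 and 0.301.

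The authors' cell clusters split the LPS-primed PB cells of the labelled samples between cluster 1, with 48 and 35 cells, and cluster 2, with 42 and 42 cells, with a further 1 and 9 cells in cluster 0. The 9 cluster 0 cells of the second sample had 195 CPM of Isg20, 73.5 of Oas3, 324 of Oasl2 and 1070 of Rsad2. These lay below both other clusters of that sample. Their Oasl1 (739 CPM) and Cmpk2 (842 CPM) lay between cluster 1 (525 and 313) and cluster 2 (818 and 1101). Cells were clustered on their expression, so the levels are a description. Isg20 was at 977 and 816 CPM in cluster 1 and at 3188 and 2835 CPM in cluster 2, a ratio of 3.26 and 3.48. Rsad2 was at 3446 and 1716 against 6854 and 6425 CPM, ratios of 1.99 and 3.74, and Cmpk2 at 608 and 313 against 1015 and 1101 CPM, ratios of 1.67 and 3.52. Oasl1 had ratios of 1.37 and 1.56 and Oas3 of 1.17 and 1.11. Oasl2 went the other way, with 1081 and 1314 CPM in cluster 1 and 905 and 728 CPM in cluster 2, ratios of 0.837 and 0.554. On the batch 6 plates 94 of 95 and 91 of 91 LPS-primed PB cells were in cluster 2.

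**Figure D5:**
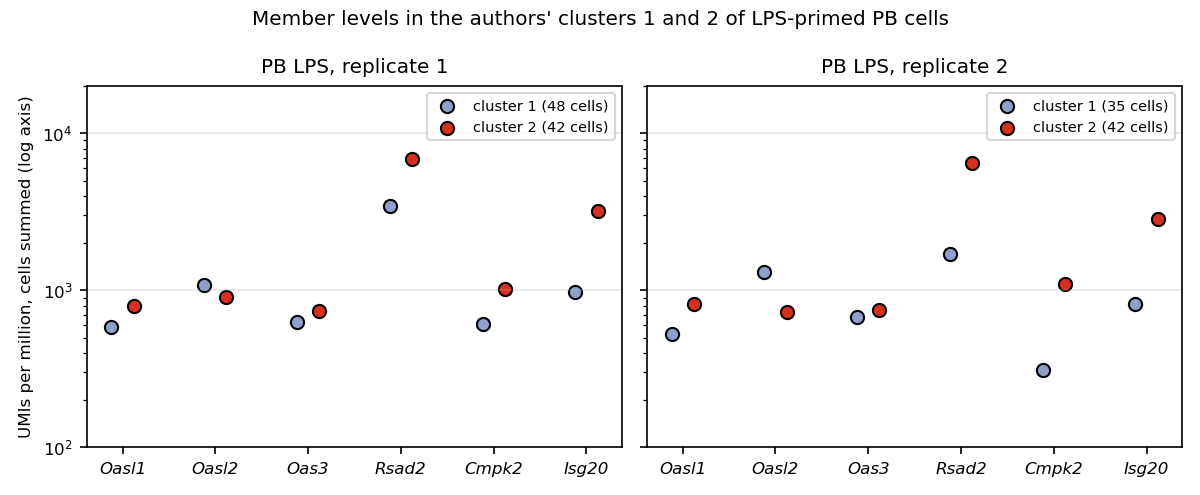
CPM (vertical log axis) of each gene summed over LPS-primed PB cells of the authors' cluster 1 (blue) and cluster 2 (red), for each labelled sample. Of the 6 genes, 5 are higher in cluster 2 in both samples, and Oasl2 is lower in both, with 905 against 1081 CPM and 728 against 1314 CPM.

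The genes most like the 6 within LPS-primed PB cells were sought among 2143 genes by their mean Spearman correlation, over the 2 labelled samples, with the mean of the 6 genes. In order these were Slfn4 (0.634), Ifit1 (0.622), Isg15 (0.593), Irf7 (0.587), H2-K1 (0.587), Plac8 (0.575), Il1rn (0.565), Slfn5 (0.557), Ifi204 (0.548) and Ifit3 (0.545), against a median of 0.0345 over the genes compared. Their own correlations with UMIs per cell were at most 0.357 in these samples. On the batch 6 plates 8 of the 10 ranked within the first 50, Ifit1 first with 0.597, while Isg15 ranked 96 and Plac8 881.

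The wider pathway was followed through lists of related genes, whose counts of genes that rose in PB stand beside 3.47% of all tested genes. Of the OAS and RNase L arm, 7 of 12 genes could be tested and 1 rose in PB after LPS, with a median log2 difference of 3.02. This was Oas2, a further synthetase, at 38.1 and 37.0 CPM after PBS and 404 and 348 after LPS in PB (4.23 ± 0.39, adjusted p = 0.000106). In BM it was at 45.03 and 52.0 against 166 and 150 CPM (1.51 ± 0.34, adjusted p = 0.242), and its effects differed between PB and BM by 2.72 ± 0.49 (adjusted p = 0.0162). Of 9 tested genes listed as exonucleases beside Isg20, 1 rose and it was not an RNA exonuclease. This was Trex1, a DNA exonuclease that limits cGAS signalling, with 11.3 and 2.47 CPM after PBS and 711 and 736 after LPS in PB (7.58 ± 0.69, adjusted p = 0.000106). The median of that list was −0.28, close to that of all genes. In BM Trex1 stayed between 23.5 and 37.9 CPM in all 4 samples.

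Of 12 tested genes that work with viperin or on nucleotide pools, with a median of −0.93, 1 rose in PB. It was Samhd1, which breaks down dNTPs, from 1093 and 854 to 1331 and 1256 CPM. Its difference on the TMM scale, 1.32 ± 0.25 (adjusted p = 0.0141), was larger than the CPM values show. Of 16 tested genes of interferon production 4 rose and none fell, with a median of 1.55. Irf7, the factor of interferon amplification, went from 182 and 201 to 1047 and 1035 CPM (3.35 ± 0.41, adjusted p = 0.000784), the LPS co-receptor Cd14 from 87.3 and 126 to 1173 and 1388 CPM (4.51 ± 0.71, adjusted p = 0.00423), and the RNA sensor Ddx58 from 70.6 and 82.7 to 327 and 318 CPM (2.99 ± 0.48, adjusted p = 0.00451). The kinase Ikbke, at 0.992 and 12.7 CPM after PBS, reached 296 and 225 CPM (6.20 ± 1.44, adjusted p = 0.0394).

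Of 20 tested genes of interferon receptors and signalling 4 rose in PB and none fell, with a median of 0.84. Stat2, of the interferon-activated complex, went from 27.6 and 77.8 to 366 and 540 CPM (4.04 ± 0.54, adjusted p = 0.00137), and Irf9, its partner, from 160 and 59.3 to 305 and 277 CPM (2.31 ± 0.50, adjusted p = 0.0278). Usp18, which removes Isg15 and dampens the receptor, went from 67.8 and 48.8 to 469 and 496 CPM (3.96 ± 0.62, adjusted p = 0.00417). The phosphatase gene Ptpn1, at 569 and 775 against 972 and 700 CPM, overlapped in CPM and passed on the TMM scale (1.22 ± 0.27, adjusted p = 0.0314).

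The list nearest to the 6 genes, other interferon-induced antiviral effectors, had 14 of 23 tested genes higher in PB after LPS and none lower, with a median of 3.70. Ifit2, which binds viral RNA, had 17.5 and 2.47 CPM after PBS and 486 and 655 after LPS (6.72 ± 1.44, adjusted p = 0.0278). Isg15, the ubiquitin-like modifier, had 86.9 and 38.0 against 694 and 721 CPM (4.41 ± 0.45, adjusted p = 0.000207). Ifit1 (5.49 ± 1.05, adjusted p = 0.0141), Ifit3 (4.55 ± 0.88, 0.0143) and Herc6 (6.31 ± 1.01, 0.00464), the mouse ligase of Isg15, complete the 5 largest. In BM no gene of the 6 lists passed the edgeR test. By the test of the difference between PB and BM, 6 of the 23 effectors passed, Isg15 among them (4.53 ± 0.58, adjusted p = 0.002), beside Oas2 and Trex1. In PBS-primed mice Irf7, Myd88 and Socs3 were higher in PB than in BM, and Pde12 and Trex1 lower.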

How the data were processed

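Per the methods and the submitters' processing notes, the authors trimmed reads with cutadapt 1.15 and aligned them to mm9 with STAR 2.6.0a. They kept uniquely mapped reads, removed duplicates by UMI and counted with HTSeq 0.11.2. Cells with few or very many genes, few UMIs, a low log-transformed ratio of genes to UMIs or an outlying ERCC ratio were left out. The gene annotation and strand setting are not given in the sources used here. What the authors deposited are raw UMI counts for each cell, not normalized, and they also gave a cell table with batch, plate, cluster and an ERCC ratio, a fraction.

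UMI counts were summed per labelled sample. Genes in at least 10 cells that passed filterByExpr (8478) were tested with edgeR 4.0.16 (quasi-likelihood, TMM, R 4.3.3) in 1 model of 8 samples and 4 groups, with Benjamini-Hochberg adjustment over all tested genes at 0.05. Fold changes are model estimates from TMM-scaled counts. DESeq2 1.42.0, limma-voom (limma 3.58.1), other scalings, no filter, thinned cells, both batches, a replicate block and leaving out each sample were the alternatives. Cells are not replicates. The labels do not say whether 2 samples of a group came from different animals. The p-values thus set differences against the spread between these samples, and may not extend to other animals. Shares have exact Clopper-Pearson intervals at 95%.

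The study compares cells with Seurat. Here sums per sample were tested instead. The members, gene lists and comparisons were chosen with earlier results of these data known. Named genes were the 6 members, of each list up to 5 passing genes with the largest change in PB, and the 10 genes most like the members among those with a UMI in at least 20% of cells. The main fit did not pair samples by replicate number. Deviations of same-numbered samples had correlations over genes of −0.0271 to 0.00518, so no shared deviation was seen. With 2 samples a group this cannot decide whether they share an animal or run, and the labels do not say. Promoter sequences are from RefSeq (GRCm38.p6), with all 6 symbols matched.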

Additional observations from a re-analysis of the deposited data

Results flagged for a closer look

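Of the 6 genes, 4 were flagged because the LPS effect in PB differed from that in BM by the interaction test of the edgeR fit. Of all tested genes, 1.45% passed that test with the higher effect in PB. The log2 difference of effects was 4.73 for Rsad2, 4.53 for Oasl1, 4.04 for Cmpk2 and 3.04 for Isg20. Each of these genes was higher in both LPS-primed than in both PBS-primed PB samples, as were 11.4% of all tested genes. In BM the labelled samples of Rsad2, Oasl1 and Cmpk2 overlapped between treatments. For Isg20 both LPS-primed BM samples lay above both PBS-primed ones, as for 25.0% of all tested genes. Groups of 2 samples are too small for a check of single outlying samples.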

How the results depend on the processing

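In PB after LPS all 16 alternatives kept the 6 genes higher, and 13 called all 6. In BM no alternative but DESeq2, which called Isg20 (1 gene), called any. The interaction calls of Rsad2 and Cmpk2 held in all 16, with 2 genes called by limma-voom and 2 with library size only. Isg20 after PBS held in all 16, and with Oasl2 it made 2 genes with DESeq2, 2 with both batches and 1 to 2 when 1 sample was left out. Over all genes, DESeq2 called 1047 in PB, 191 in BM, 487 for the difference and 942 for PB against BM. Both batches gave 651, 27, 203 and 416, where the main counts were 334, 6, 127 and 221. In BM, limma-voom and library size only called 10 each, no filter 15 and thinned cells 36. Library size only called 64 for the difference, split 45 higher and 19 lower against 123 and 4, and 213 higher and 84 lower against 100 and 121 for PB against BM, and limma-voom called 370 there. Leaving out 1 sample gave 146 to 400 in PB (146 without PBS-primed PB replicate 2), 2 to 28 in BM, 80 to 168 for the difference and 108 to 342 for PB against BM, where a group left with 1 sample is assumed to vary like the others. With the replicate block the counts were 374, 13, 154 and 255, and it called as many of the 6 genes, 6, 0, 4 and 1. Whether same-numbered samples are pairs is not given by the labels. In BM, signs turned for Oasl1 with thinned cells (0.27) and both batches (0.0064), for Oasl2 with both batches (0.16) and for Cmpk2 with both batches (0.22). With 1 sample left out, BM values ran from −0.86 to 0.66 for Oasl2, −0.72 to 0.59 for Rsad2 and −0.65 to 0.25 for Cmpk2, and Oas3 in PB against BM from −0.45 to 1.29. The median share of positive cells over the 6 genes was 57.3%, 95.8%, 46.7% and 55.7% with all UMIs in PBS-primed PB, LPS-primed PB, PBS-primed BM and LPS-primed BM, and 11.1%, 57.0%, 6.69% and 10.9% at 2 or more UMIs, against 21.3%, 73.9%, 16.98% and 17.8%. By Pearson 9 of the 10 most alike genes were shared. The causes were not tested. With 2 samples a group, spread limits all calls.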
